A study of Mus musculus with 8 samples.

Results

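The 38 genes described here encode the ion channels that respond to glutamate at excitatory synapses, together with the proteins that load, assist and anchor them. They comprise 4 AMPA, 7 NMDA, 5 kainate and 1 delta receptor subunit, 5 auxiliary proteins, 3 vesicular glutamate transporters and 13 scaffold and trafficking proteins. Members were taken by name: a probe belonged to the set when its gene name on the array equalled 1 of the 38 symbols. This gave 38 of the 37074 gene names and 92 of the 56605 probes on the array, and every gene had at least 1 probe. Tissue holding the whole cerebral cortex and the striatum came from 4 male C57BL/6J mice (B6), an inbred reference strain, and from 4 male BTBRTF/ArtRbrc mice (BTBR/R), a subline of the inbred BTBR strain. BTBR/R mice carry the spontaneous mutations T, Itpr3 tf and a t. BTBR/R replicate 1 was 6 months old and the other 7 mice were 4 months old. The RNA of each mouse was measured on an array of its own, with no treatment and no pooling. The strains differ at many loci besides the named mutations, so a difference belongs to the strain as a whole. All B6 arrays lay in slide column 1 and all BTBR/R arrays in slide column 2, so strain cannot be told apart from slide column.

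Glutamate is the main fast excitatory transmitter of the forebrain. It is packed into synaptic vesicles by the vesicular transporters and, once released, opens AMPA receptors for the rapid current, NMDA receptors for a slower current that admits calcium, and kainate receptors with modulatory roles on both sides of the synapse. Receptors are tetramers built from subunits of 1 family, and auxiliary proteins set their gating and delivery to the membrane. On the inner side of the postsynaptic membrane, membrane-associated guanylate kinases (the Dlg genes) hold the receptors, the SAPAP proteins (the Dlgap genes) join these kinases to deeper layers of the scaffold, and Homer proteins tie the scaffold to metabotropic receptors and calcium stores. The tissue was measured in bulk, so fewer cells of a type and less RNA per cell cannot be told apart.

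The scaled signal of a probe is log2 of its processed spot intensity minus the 75th percentile of its array, and a difference is BTBR/R minus B6 on that log2 scale. Detection means that the scanner software flagged the spot as well above background. B6 arrays detected 64.5% to 66.8% of all probes and BTBR/R arrays 53.5% to 57.2%, so counts were taken over probes detected on all 8 arrays. Cortical and striatal marker genes, 8 of each, were all detected on all 8 arrays. In the following, a probe passed when its limma adjusted p, taken over all probes, was below 0.05, and it was called when the change was also at least 2-fold.

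Most of the glutamate receptor and scaffold probes differed little between the strains, and none of those detected on all 8 arrays reached 2-fold. Of the 92 probes, 81 (37 genes) were detected on all 8 arrays. Among these, 7 (8.64%) were higher and 13 (16.0%) lower in BTBR/R mice at an adjusted p below 0.05. Among all 28557 probes detected on all 8 arrays, 13.0% were higher and 13.9% lower by the same rule, so the members' shares lay near the background. At 2-fold, 0 of the 81 were called in either direction, against 1.04% higher and 1.16% lower of all probes. The median difference of the 81 probes was -0.01, and that of all probes was 0.00149. The probes that passed belonged to 15 genes, 7 of them higher (Grin2a, Grin2b, Grik1, Grik3, Neto1, Neto2 and Dlgap2) and 8 lower (Grid1, Gsg1l, Dlg1, Dlg2, Dlg4, Dlgap1, Dlgap4 and Homer2). No gene had passing probes in both directions. The split of 7 higher and 13 lower became 16 higher and 3 lower when arrays were scaled by the spike-in controls, which moved the median of all probes to 0.12 and made 5868 higher and 1743 lower of the 28557, and no passing probe changed sign under any scaling. The 3 lower probes that still passed were those of Dlg1, Homer2 and Dlg2 probe 4. With slide row as a block, which is also the block of same-numbered mice, 3 were higher and 9 lower, and the calls of Grin2a, Grin2b, Neto2, Gsg1l, Dlgap1, Dlgap2 and the leading Dlg4 probe were lost (adjusted p 0.0501 to 0.12). The count of higher probes fell to 3 without B6 replicate 2 or BTBR/R replicate 3, and to 4 without B6 replicate 1, 3 or 4 or BTBR/R replicate 4. With BTBR/R replicate 1 or 2 left out it was 7 and 5. The count of lower probes lay between 9 and 13 when each mouse was left out in turn.

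The leading probe of a gene, the brightest of its probes detected on all 8 arrays, was higher in BTBR/R mice for 3 genes (Grin2a, Grik3 and Neto1), lower for 5 (Grid1, Gsg1l, Dlg4, Dlgap4 and Homer2) and did not pass for the other 30. Of all probes detected on all 8 arrays, leading or not, 13.0% were higher and 13.9% lower. Homer3 had no probe detected on all 8 arrays and is shown by the brightest of its probes. The fold changes of the passing leading probes were 1.17-fold to 1.35-fold.

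**Figure D1:**
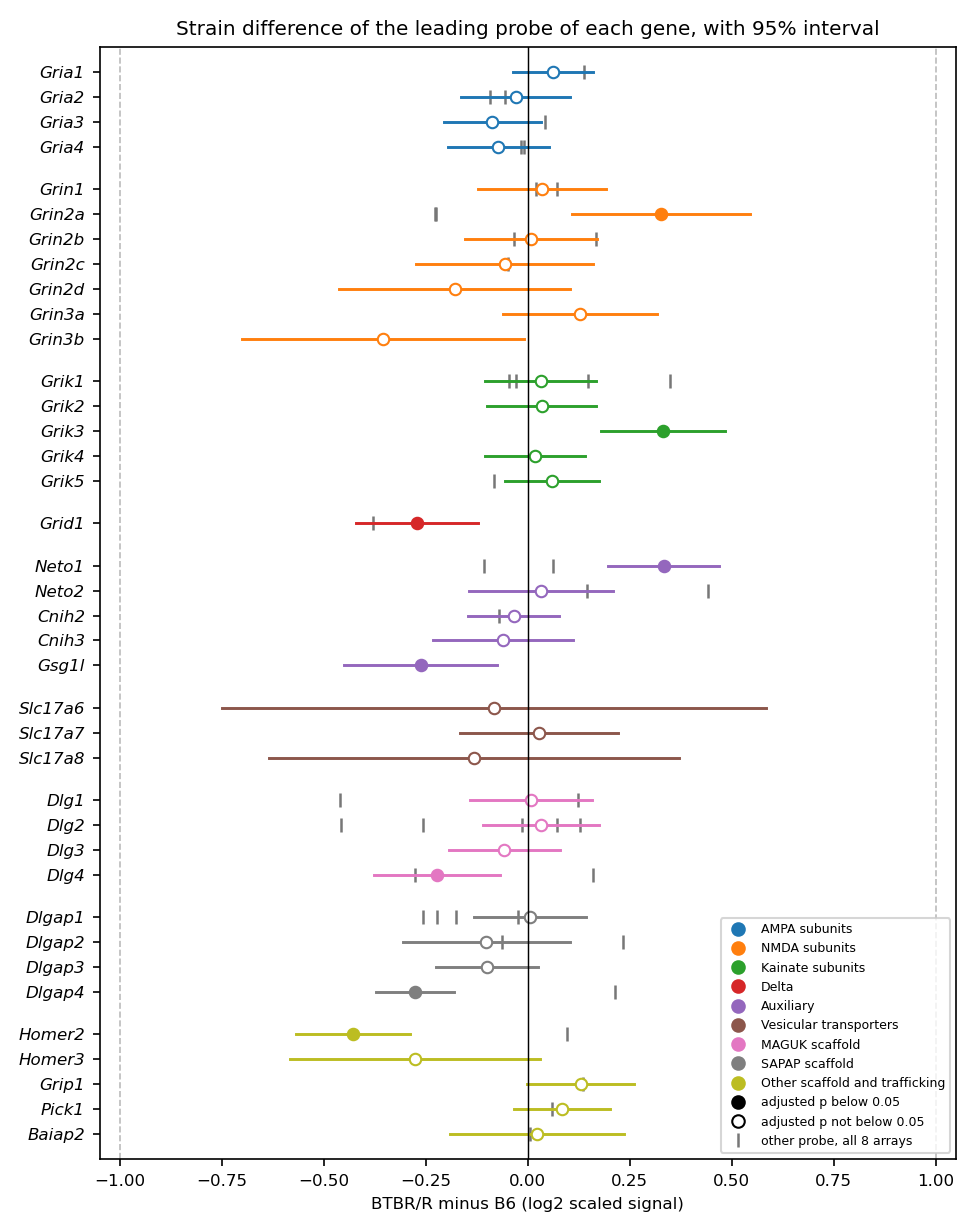
Difference between BTBR/R and B6 mice (log2 scaled signal, x axis) for the leading probe of each of the 38 genes, coloured by role, with its 95% confidence interval from limma and n = 4 mice per strain. Filled circles passed an adjusted p below 0.05, grey ticks are the other probes of the gene that were detected on all 8 arrays, and the dashed lines mark 2-fold. All intervals lie inside the 2-fold lines, and the ticks of Grin2a, Dlg1, Dlg2 and Dlgap4 lie far from the leading probe of the gene.

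The probes of the genes that the results turn on are identified here by the middle 30 of their 60 bases, as given with the array (bases 16 to 45 of the probe), because different probes of 1 gene often gave different results. Positions of the printed bases are on the mm9 mouse build, and the array annotation assigns each probe to the gene named. Exon and UTR positions were not looked up, since no mm9 gene models were used here.
Grik3 probe 1 (chr4:125391332-125391361, plus strand), higher in BTBR/R: aagacactgtgatatatcaaagtgcacagt
Grik2 probe 2 (chromosome 10, minus strand), lower and dim: aaggggtcttaggatctcaaagttagaatc
Grin2a probe 1 (chr16:9991787-9991816, minus strand), higher: cttcggtaaagtgattaaacctgctactac
Grin2a probe 2 (chr16:9577818-9577847, minus strand), of the opposite sign: tccaatagcaccctactaggaggaagagga
Grid1 probe 1 (chr14:36393869-36393898, plus strand), lower: caggtcgcccaatgggggactgtttcgaca
Grid1 probe 2 (chr14:36396087-36396116, plus strand), lower: ctttggtatatcatggatatggatgtcttt
Dlg1 probe 1 (chr16:31871887-31871916, plus strand), did not pass: ttttttccatggtctcatctcttgccctgt
Dlg1 probe 2 (chr16:31773829-31773858, plus strand), lower: atatagcaagttctaaaacagccagggcta
Dlg2 probe 4 (chr7:99436688-99436717, plus strand), lower: ggagaactaccttagtaaatgtcttatagt
Dlgap4 probe 1 (chr2:156588649-156588678, plus strand), lower: ggagaaagcactcaatttgaaatcattaaa
Homer2 probe 1 (chr7:88756214-88756243, minus strand), lower: aatcatacctcagctcatgtccgagtgtga
Homer2 probe 2 (chr7:88768468-88768497, minus strand), did not pass: ttaaaagcatgacaatgatggctataaagg
Slc17a6 probe 1 (chr7:58926082-58926111, plus strand), the transporter with the largest spread between mice: aaacctcctgtgtgtaaattatccccatgt

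The AMPA receptor subunits, which carry most of the fast excitatory current, gave no passing probe at the processed signal. Their 10 probes detected on all 8 arrays differed by -0.09 to 0.14, with a median of -0.02. Of all probes with such detection, 13.0% were higher and 13.9% lower. Gria1, whose subunit is inserted into synapses during potentiation, read 5.05 ± 0.03 in B6 mice and 5.11 ± 0.03 in BTBR/R mice (leading probe, SD, n = 4 each), a difference of 0.06 with a 95% interval of -0.04 to 0.16 (limma adjusted p = 0.283). Gria2, the subunit that makes the channel impermeable to calcium, differed by -0.03 (-0.16 to 0.10). The leading probes of Gria3 and Gria4 differed by -0.09 (-0.21 to 0.03) and -0.07 (-0.20 to 0.05). Probe 2 of Gria1 differed by 0.14 (adjusted p = 0.0883), but by 0.23 (adjusted p = 0.012) with normexp background correction. The interval of every one of these 4 leading probes lay within a 1.2-fold change. Probe 3 of Gria3 was detected on every B6 array but not on every BTBR/R array and differed by -0.19 (adjusted p = 0.356).

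Of the 14 NMDA receptor probes detected on all 8 arrays, 2 were higher in BTBR/R mice and none was lower, against 13.0% and 13.9% of all probes. Grin1, the subunit that every NMDA receptor needs, did not differ beyond its spread: its leading probe changed by 0.03 (95% interval -0.12 to 0.19). Grin2a and Grin2b encode the glutamate-binding subunits that predominate in the forebrain. The leading Grin2a probe read 2.47, 2.77, 2.82 and 2.85 in B6 replicates 1 to 4 and 3.07, 2.96, 3.06 and 3.13 in BTBR/R replicates 1 to 4. The lowest BTBR/R mouse was above the highest B6 mouse, and B6 replicate 1 lay well below the other B6 mice. The difference was 0.33 (SE 0.09, limma adjusted p = 0.0276), or 1.25-fold. The other probes of Grin2a, 414 kb away towards the 3 prime end, had the opposite sign: probe 2 differed by -0.23 (95% interval -0.42 to -0.04, adjusted p = 0.0574) and probe 3 by -0.23 (adjusted p = 0.244). With all Grin2a probes averaged, the difference was -0.043 (adjusted p = 0.728). The Grin2a call was lost without B6 replicate 2 or BTBR/R replicate 1, 3 or 4, with adjusted p up to 0.0686, and without the 2 mice highest in thalamic markers described further on it was 0.27 (adjusted p = 0.0133).

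Grin2b did not pass on the leading probe (0.01, 95% interval -0.15 to 0.17), while probe 2, 440 kb towards the 5 prime end, was higher by 0.17 (adjusted p = 0.0488). That call held in 1 of the 8 fits that left out a single mouse, the fit without BTBR/R replicate 1, and was lost in the other 7 (adjusted p up to 0.115). Grin2c and Grin2d, subunits of more restricted expression, differed by -0.06 (-0.27 to 0.16) and -0.18 (-0.46 to 0.10). Grin3a and Grin3b encode glycine-binding subunits that lower calcium permeability. Their leading probes differed by 0.13 (adjusted p = 0.256) and -0.35 (adjusted p = 0.0965), and the interval of Grin3b ran from -0.70 to -0.01. Probe 2 of Grin2d and probes 2 and 3 of Grin3a were detected on no array. Of these 3 undetected probes, 1 (Grin3a probe 3) exceeded the 2-fold threshold at a higher value in BTBR/R mice, as did 67.7% of all probes detected on no array, and no level is read from it.

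Kainate receptor genes had 2 higher and no lower probe among the 10 detected on all 8 arrays, against 13.0% and 13.9% of all probes, and also the only called probe with detection on every array of a strain. Grik3, a subunit with low glutamate affinity, has 1 probe on the array. It read 1.16, 1.22, 1.14 and 1.36 in B6 mice and 1.50, 1.50, 1.60 and 1.60 in BTBR/R mice. Every BTBR/R mouse lay above every B6 mouse. The difference was 0.33 (SE 0.07, 95% interval 0.18 to 0.48, limma adjusted p = 0.0054), or 1.26-fold, and it passed in all 21 alternatives tried for it.

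Probe 2 of Grik2, which encodes a widely expressed kainate subunit, read -2.22, -2.46, -2.51 and -2.34 in B6 mice and -3.42, -3.42, -3.46 and -3.75 in BTBR/R mice. The groups were far apart, but the probe was detected on all 4 B6 arrays and on 1 BTBR/R array. Its fold is therefore a bound: the mean of the B6 mice was at least 2.17-fold above the BTBR/R mice, with each BTBR/R array entered at its detection limit or at the probe's own signal, whichever was higher. The fitted difference was -1.13 (limma adjusted p = 5.74e-05). It was the only 1 of 6 member probes (16.7%) detected on every B6 array and not on every BTBR/R array that was called lower, against 12.6% of all such probes. With normexp background correction the difference was -0.60, short of 2-fold. The leading Grik2 probe, 424 kb away towards the 5 prime end, differed by 0.03 (95% interval -0.10 to 0.17). Probe 3 was detected on 1 BTBR/R array, and its interval of -0.82 to 0.88 leaves its difference unsettled. The array annotation places the 60 bases of probe 2 over 57 positions of mm9, at 48819269 to 48819325 of chromosome 10.

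The leading probes of the other kainate subunits did not pass. Grik1 differed by 0.03 (95% interval -0.10 to 0.17), Grik4 by 0.02 (-0.11 to 0.14) and Grik5 by 0.06 (-0.06 to 0.18). Grik4 and Grik5 encode high-affinity subunits that need a partner of the Grik1 to Grik3 group. Probe 5 of Grik1, at 87912812 to 87912871 of chromosome 16, was higher by 0.35 (adjusted p = 0.0452), but this call held in 1 of the 8 fits without a single mouse (that without BTBR/R replicate 2) and the difference was 0.12 (adjusted p = 0.205) with normexp background correction. The median difference of the 10 probes was 0.03.

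Grid1 encodes a delta subunit, which resembles the other receptors but acts mainly as an adhesion partner of cerebellin proteins across the synapse. It was the only receptor subunit gene with more than 1 probe of which every probe passed, and both were lower in BTBR/R mice. Probe 1 read -1.49, -1.36, -1.62 and -1.53 in B6 mice and -1.71, -1.77, -1.82 and -1.78 in BTBR/R mice. Probe 2, 2.22 kb towards the 3 prime end, read -2.08, -1.93, -2.21 and -2.12 against -2.40, -2.56, -2.42 and -2.47. In both probes the strains did not overlap. The differences were -0.27 (SE 0.06, limma adjusted p = 0.0127) and -0.38 (SE 0.07, adjusted p = 0.00472). Both passed whichever single mouse was left out, and under spike-in scaling they were -0.16 (adjusted p = 0.159) and -0.27 (adjusted p = 0.0513). With normexp correction probe 2 differed by -0.19 (adjusted p = 0.0225).

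**Figure D2:**
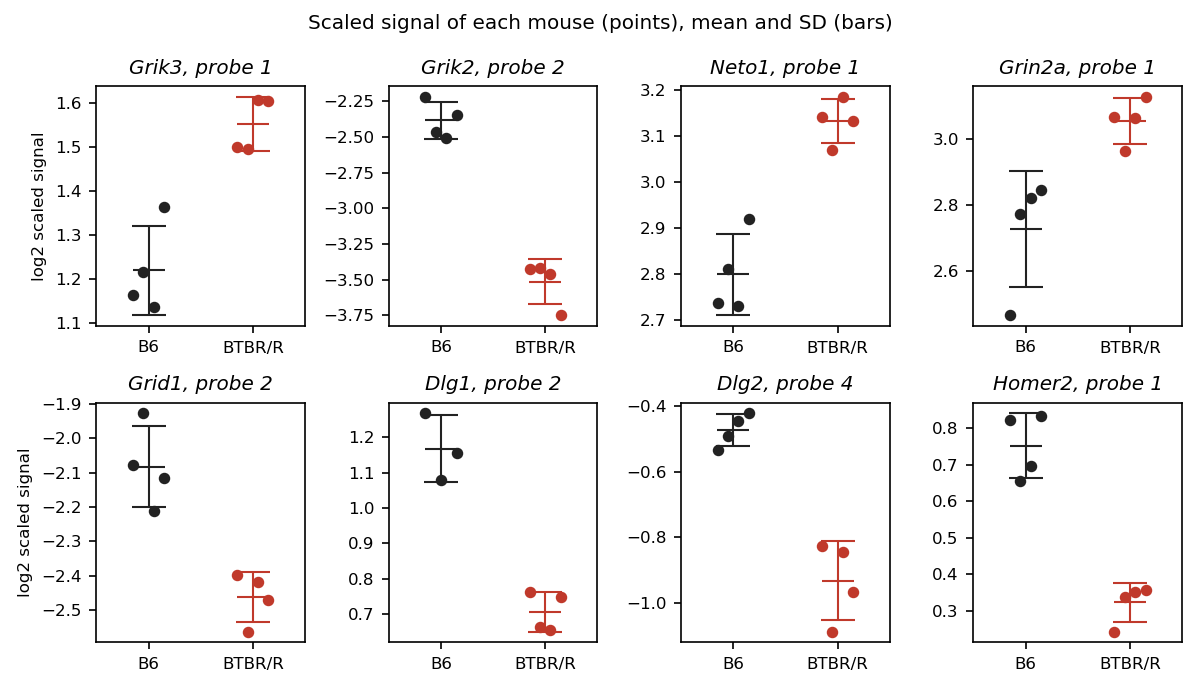
Scaled signal of each mouse (points, log2) for 8 probes, with the mean and SD of each strain as bars. The strains do not overlap in any panel, detection of Grik2 probe 2 failed on 3 BTBR/R arrays, and Dlg1 probe 2 has 3 B6 points because the spot of B6 replicate 4 was marked an outlier.

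Among the auxiliary proteins, Neto1 was higher and Gsg1l lower in BTBR/R mice by their leading probes. Neto1 and Neto2 encode CUB-domain membrane proteins that slow the gating of kainate receptors. The leading Neto1 probe read 2.74, 2.81, 2.73 and 2.92 in B6 mice and 3.14, 3.07, 3.18 and 3.13 in BTBR/R mice. The strains did not overlap, and the difference was 0.33 (SE 0.06, limma adjusted p = 0.00298), or 1.26-fold. Neto1 probe 2, 1.70 kb towards the 3 prime end, differed by -0.11 (95% interval -0.35 to 0.13) and probe 3 by 0.06 (-0.09 to 0.21). Averaged over its 3 probes, Neto1 differed by 0.10 (adjusted p = 0.239). For Neto2, the leading probe differed by 0.03 (-0.15 to 0.21), probe 2 by 0.15 (adjusted p = 0.122) and probe 3 by 0.44 (adjusted p = 0.0276). The Neto2 probe 3 call was kept without BTBR/R replicate 1 or 4 and lost when any 1 of the other 6 mice was left out (adjusted p up to 0.0681).

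Gsg1l encodes an AMPA receptor auxiliary protein that slows recovery from desensitization. Its 1 probe read 2.02, 2.33, 2.26 and 2.18 in B6 mice and 1.85, 1.91, 1.95 and 2.04 in BTBR/R mice. The highest BTBR/R mouse was above the lowest B6 mouse, so the strains overlapped. The difference was -0.26 (SE 0.08, limma adjusted p = 0.0354), and it was lost in 6 of the 8 fits that left out a single mouse, being kept without B6 replicate 1 or BTBR/R replicate 4. It was -0.15 (adjusted p = 0.289) with spike-in scaling. The cornichon proteins Cnih2 and Cnih3, which promote export and slow the deactivation of AMPA receptors, differed by -0.03 (95% interval -0.15 to 0.08) and -0.06 (-0.23 to 0.11).

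None of the 3 vesicular transporters passed, and of the 38 genes Slc17a6 and Slc17a8 had the widest spread between mice of a strain. Slc17a7 is the transporter of most cortical excitatory neurons, Slc17a6 that of thalamic and other subcortical ones, and Slc17a8 is found in scattered neurons of other transmitter types. Slc17a7 differed by 0.03 (95% interval -0.17 to 0.22). Slc17a6 read 0.87 in B6 replicate 1 and -0.31 to -0.21 in the other B6 mice, and 0.30 in BTBR/R replicate 2 and -0.22 to -0.14 in the other BTBR/R mice. Slc17a8 read -0.60 in B6 replicate 1 against -1.53 to -1.48, and -1.27 in BTBR/R replicate 2 against -1.55 to -1.40. In each strain 1 mouse thus stood above the rest for both genes. The pooled SD within strains was 0.44 for Slc17a6 and 0.33 for Slc17a8, against a median of 0.08 over the 38 leading probes.

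The same mice were highest in markers of the thalamus, a region outside the labelled tissue. Tcf7l2, a transcription factor of thalamic neurons, read 1.23 in B6 replicate 1 and -0.75 to -0.47 in the other B6 mice. Of the 8 thalamic markers, of which Slc17a6 is itself one, 7 were detected on all 8 arrays and none passed between strains, and their summed level was 3.83 in B6 replicate 1 against 2.13 to 2.24, and 3.18 in BTBR/R replicate 2 against 2.10 to 2.29. Among the 38 leading probes, both of these mice were the highest of their strain for Slc17a6, Slc17a8, Grin2c and Dlgap3, and both were the lowest for 9 genes, among them Grin2a, Slc17a7 and Baiap2. Without these 2 mice, a choice made after seeing the data, Slc17a6 differed by 0.08 (adjusted p = 0.345) in place of -0.08 and Slc17a8 by 0.04 (adjusted p = 0.613) in place of -0.13, and 5 probes were higher and 9 lower of the 81. Of these 81, the calls of Grin2b probe 2, Neto2 probe 3, Grid1 probe 1, Dlg2 probe 6 and Dlgap1 probes 3 and 4 were lost in that fit of 6 mice (adjusted p 0.0579 to 0.182). Summed thalamic levels of the strains overlapped. The part of thalamic tissue in the members' values was not tested.

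**Figure D3:**
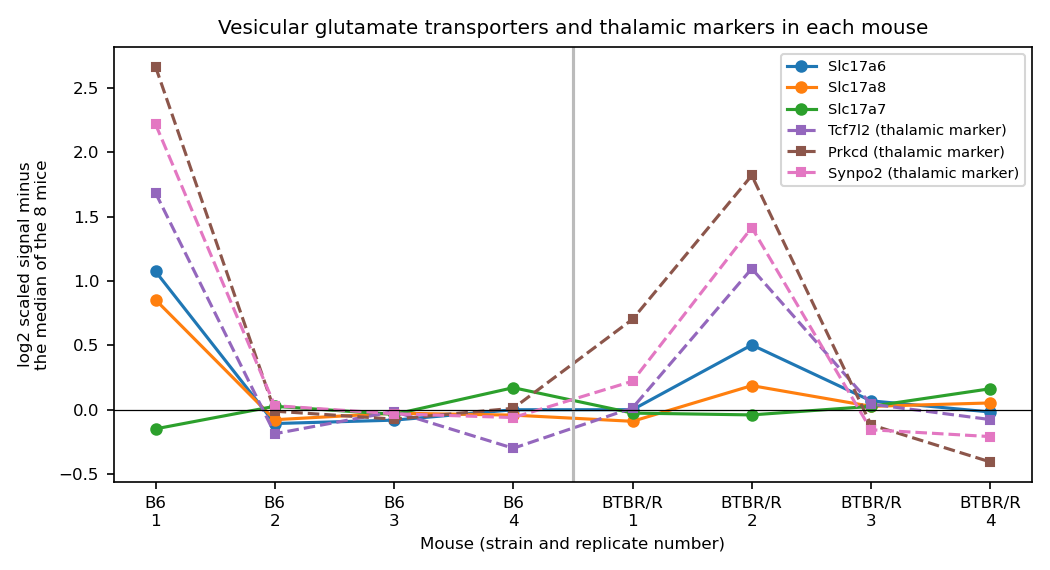
Scaled signal of each mouse minus the median of the 8 mice (log2, y axis) for the vesicular glutamate transporters (circles, solid lines) and 3 thalamic markers (squares, dashed lines). Slc17a6, Slc17a8 and the markers share their peaks in B6 replicate 1 and BTBR/R replicate 2, while Slc17a7 is at the lowest level of each strain in those mice. Lines join values of 1 gene and carry no order between mice.

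The membrane-associated guanylate kinases had 5 lower and no higher probe among 13, where 13.9% of all probes were lower and 13.0% higher, and the 5 came from Dlg1, Dlg2 and Dlg4. In each gene with a passing probe at least 1 other probe did not pass. Dlg4 (PSD-95) is the most abundant scaffold of mature excitatory synapses. Its leading probe read 2.79, 2.89, 2.89 and 2.88 in B6 mice and 2.68, 2.48, 2.67 and 2.74 in BTBR/R mice. All BTBR/R mice were below all B6 mice, and the difference was -0.22 (SE 0.07, limma adjusted p = 0.0315), or 1.17-fold. This call was lost without B6 replicate 2, 3 or 4 or BTBR/R replicate 3 (adjusted p up to 0.0766), and with spike-in scaling (-0.11, adjusted p = 0.432). Probe 3 of Dlg4, 5.42 kb towards the 5 prime end, was lower by -0.28 (adjusted p = 0.00694), but by -0.13 (adjusted p = 0.0683) with normexp correction and -0.16 (adjusted p = 0.0716) with spike-in scaling. Probe 2 differed by 0.16 (95% interval -0.004 to 0.32). Averaged over the gene's detected probes, Dlg4 differed by -0.11 (adjusted p = 0.0738).

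Probe 4 of Dlg4 was detected on no B6 array and on 2 BTBR/R arrays. It read between -7.34 and -6.97 in B6 mice and -2.13, -5.70, -1.36 and -5.88 in BTBR/R mice. Only BTBR/R replicates 1 and 3 stood out, and no fold is given. The limma call (adjusted p = 0.0395) was lost when any 1 of the B6 mice, or BTBR/R replicate 1 or 3, was left out, and the difference of 3.42 was 0.96 (adjusted p = 0.201) with normexp background correction.

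Dlg2 (PSD-93) has 6 probes detected on all 8 arrays, and 2 of them passed. Probe 4 read -0.53, -0.49, -0.45 and -0.42 in B6 mice and -0.83, -1.09, -0.85 and -0.97 in BTBR/R mice, with no overlap. The difference was -0.46 (SE 0.07, limma adjusted p = 0.0014), or 1.37-fold, and passed in all 21 alternatives. Probe 6, which lies 1971 kb towards the 5 prime end of the leading probe, was lower by -0.26 (adjusted p = 0.0108), but by -0.13 (adjusted p = 0.0861) with normexp correction and -0.14 (adjusted p = 0.177) with spike-in scaling. The other 4 probes differed by 0.03, 0.13, -0.01 and 0.07, and that of 0.13 (probe 2) had an adjusted p of 0.0537. The signal of probe 4 minus that of the leading probe was -2.73 to -2.64 in B6 mice against -3.31 to -3.05 in BTBR/R mice, so within each mouse the relation of these probes differed between the strains.

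Dlg1 encodes a scaffold found along the delivery route of AMPA receptors. Its leading probe differed by 0.01 (95% interval -0.14 to 0.16). Probe 2, 98.1 kb towards the 5 prime end, read 1.27, 1.08 and 1.16 in B6 replicates 1 to 3 and 0.76, 0.66, 0.65 and 0.75 in BTBR/R mice. The spot of B6 replicate 4 was marked an outlier and left out. The strains did not overlap, and the difference was -0.46 (SE 0.07, limma adjusted p = 0.00181), or 1.38-fold, the largest fall among the 81 probes. With the authors' log2 values, in which that spot is kept, it was -1.52 (adjusted p = 0.255). Probe 3 of Dlg1 differed by 0.12 (-0.39 to 0.64). Dlg3, a scaffold prominent in young synapses, differed by -0.06 (-0.19 to 0.08).

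The SAPAP scaffold genes had 4 lower and 1 higher probe among 11, where 13.9% of all probes were lower and 13.0% higher, and 3 of the 4 lower probes were of Dlgap1. The leading probe of Dlgap4 read 4.16, 4.13, 4.13 and 4.13 in B6 mice and 3.81, 3.88, 3.86 and 3.90 in BTBR/R mice. The groups were far apart beside their spread, and the difference was -0.28 (SE 0.04, limma adjusted p = 0.00118), or 1.21-fold. With spike-in scaling it was -0.16 (adjusted p = 0.0741). Probe 2 of Dlgap4, a dim one 149 kb towards the 5 prime end, differed by 0.21 (95% interval -0.02 to 0.44). The mean of the pair was -0.03 (adjusted p = 0.729).

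For Dlgap1, probes 3, 4 and 5 were lower by -0.26 (adjusted p = 0.00972), -0.18 (0.0334) and -0.22 (0.0311), while the leading probe and probe 2 differed by 0.01 (95% interval -0.13 to 0.14) and -0.02 (-0.14 to 0.09). Probe 3 passed whichever single mouse was left out, whereas probe 4 passed only without B6 replicate 1 or BTBR/R replicate 3 and probe 5 only without B6 replicate 1 or BTBR/R replicate 2 or 3. Probe 3 did not pass with normexp correction (-0.15, adjusted p = 0.0801), with spike-in scaling (-0.14, adjusted p = 0.186) or with the block (adjusted p = 0.0572), and probes 4 and 5 were at -0.06 (adjusted p = 0.552) and -0.11 (adjusted p = 0.344) with spike-in scaling. Averaged over its probes, Dlgap1 differed by -0.14 (adjusted p = 0.0437). Probe 6 of Dlgap1 was detected on every B6 array, but at a signal that was too dim for detection on the BTBR/R arrays, and no fold is given. Dlgap2 had its probe 3, 336 kb towards the 5 prime end of the leading probe, higher by 0.23 (adjusted p = 0.0121), and its other probes at -0.10 and -0.06. Dlgap3, a SAPAP gene with strong expression in the striatum, differed by -0.10 (-0.22 to 0.02).

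Homer2 had the lowest adjusted p of the 81 probes. Homer proteins bind a proline-rich motif of metabotropic glutamate receptors and of calcium channels of the endoplasmic reticulum. The leading Homer2 probe read 0.82, 0.66, 0.70 and 0.83 in B6 mice and 0.24, 0.34, 0.35 and 0.36 in BTBR/R mice. There was no overlap, and the difference was -0.43 (SE 0.06, 95% interval -0.57 to -0.29, limma adjusted p = 0.000863), or 1.35-fold. It passed in all 21 alternatives. Homer2 probe 2, 12.3 kb towards the 5 prime end, differed by 0.10 (-0.11 to 0.30), and the mean of both probes by -0.17 (adjusted p = 0.0772). Homer3, whose brightest probe was detected on every B6 array but not on every BTBR/R array, differed by -0.28 (adjusted p = 0.135).

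The remaining scaffold and trafficking genes did not pass on any probe detected on all 8 arrays. Grip1 and Pick1 encode PDZ proteins that bind the tail of AMPA receptor subunits and take part in their sorting. They differed by 0.13 (95% interval -0.003 to 0.26) and 0.08 (-0.03 to 0.20). Probe 3 of Grip1, detected on every B6 array but not on every BTBR/R array, was lower by at least 1.28-fold (fitted difference -0.61, adjusted p = 0.00993) and at -0.16 (adjusted p = 0.0998) with normexp background correction. Baiap2, an actin-bending adaptor of dendritic spines, differed by 0.02 (-0.19 to 0.24).

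Probes of the same gene were not always alike in whether they passed, which by itself does not show that their strain differences differed. Of the 37 genes, 24 had 2 or more probes detected on all 8 arrays. In 12 genes at least 1 probe passed and at least 1 did not. For these 12, the signal of the passing probe with the lowest p minus that of the brightest other probe that did not pass was taken within each mouse. The strains did not overlap in this value for 9 of them (Grin2a, Dlg1, Dlg2, Dlg4, Dlgap1, Dlgap2, Dlgap4, Homer2 and Neto1) and did for Grin2b, Grik1 and Neto2. These pairs were picked by their strain difference, which favours separation of the strains, so the values are a description. The same share was not taken over all genes, and the 9 are not read as a trait of these genes. By the transcript given for a probe, 8 of the 11 member probes annotated to an Ensembl transcript passed (72.7%) and 11 of the 64 annotated to a curated RefSeq transcript (17.2%). Over all probes detected on all 8 arrays the shares were 27.7% and 26.0%. Probes of 1 gene share their RNA, so these are not independent counts.

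**Figure D4:**
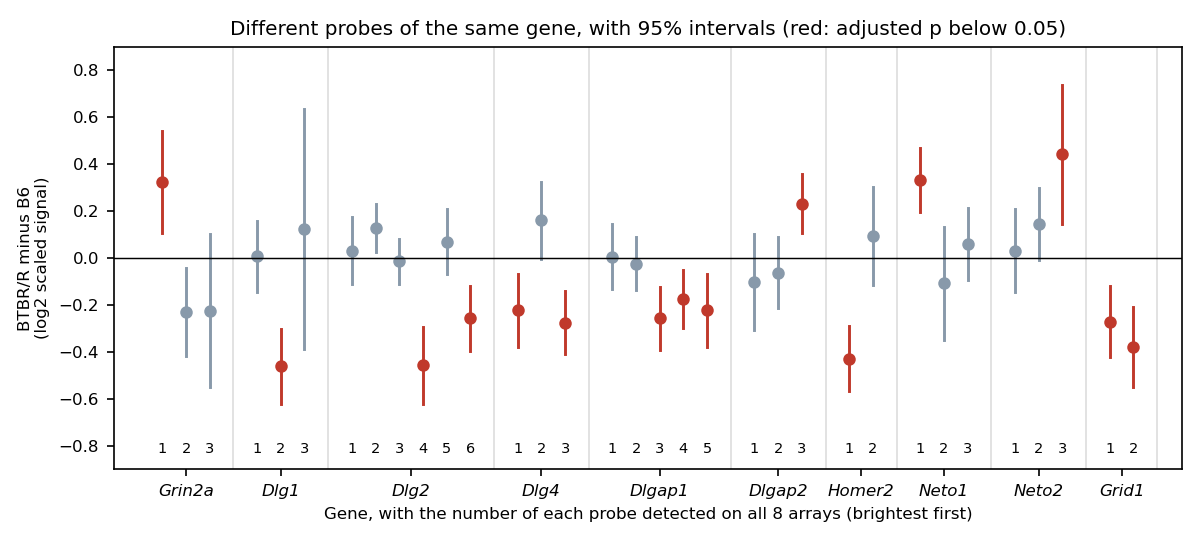
Difference between BTBR/R and B6 mice (log2 scaled signal, y axis) for every probe detected on all 8 arrays of 10 genes, numbered from the brightest, with 95% confidence intervals from limma. Red probes passed an adjusted p below 0.05. Grid1 is the only gene shown whose probes all passed, and the signs of the estimates are mixed in, among others, Grin2a, Dlg4, Dlgap2 and Homer2.

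The intervals show how large a strain difference these arrays leave room for. All 81 intervals lay within 2-fold, 73 within 1.5-fold and 39 within 1.2-fold. Among the 61 probes that did not pass, the counts were 61, 57 and 39. The median absolute difference was 0.09 for the 81 probes and 0.12 for all probes detected on all 8 arrays, and the 90th percentile was 0.33 against 0.45. The largest absolute difference among the members was 0.46.

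**Figure D5:**
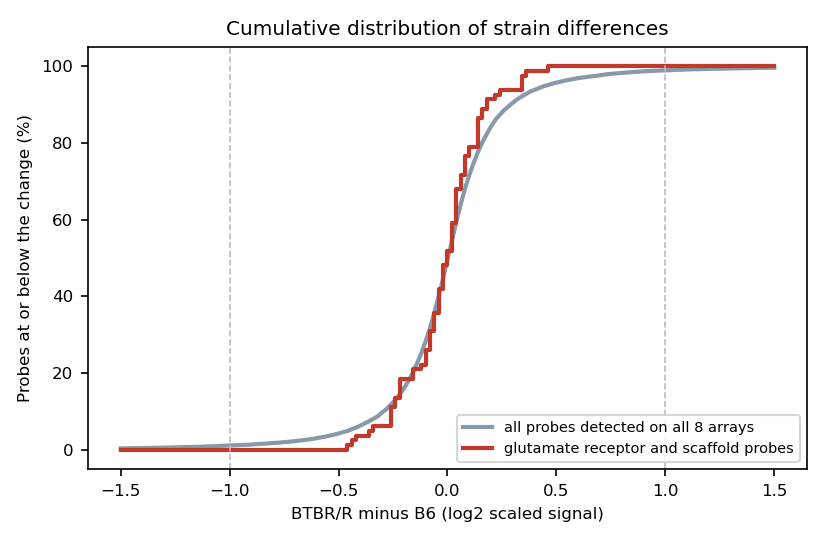
Cumulative share of probes (y axis, %) at or below a given difference between BTBR/R and B6 mice (x axis, log2 scaled signal) for the 81 glutamate receptor and scaffold probes (red) and all 28557 probes detected on all 8 arrays (grey). The red curve ends at -0.46 and 0.44, while 1.16% and 1.04% of all probes were called beyond the dashed 2-fold lines.

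Other genes of the pathway were read from a pair of lists. The list of other postsynaptic genes (AMPA receptor partners, further scaffold proteins, synaptic organizers and kinases) has 50 genes, of which 49 had a probe, and 95 probes were detected on all 8 arrays. Of these, 11 were higher, 10 lower and 74 did not pass, with a median difference of 0.02, where 13.0% of all probes were higher and 13.9% lower. Among these 95, only Frrs1l, which takes part in the assembly of AMPA receptors in the endoplasmic reticulum, was called at 2-fold: it fell from 3.69 ± 0.11 to 2.67 ± 0.07 (SD, n = 4 each), a difference of -1.02 (SE 0.07, limma adjusted p = 2.76e-05). A probe of Camk2b, a subunit of the calcium and calmodulin dependent kinase, was detected on all 4 B6 arrays and on no BTBR/R array and was called lower, by at least 2.25-fold (fitted difference -1.91, adjusted p = 2.76e-05), while both Camk2b probes detected on all 8 arrays did not pass (0.13 and 0.12). The lowest adjusted p was that of a probe of Cript, which binds the PDZ domains of Dlg4: it was higher by 0.99 (adjusted p = 1.07e-05), while the other Cript probe was lower by -0.34 (adjusted p = 0.00124). Cacng7, a relative of stargazin, had 1 probe higher by 0.88 (adjusted p = 6e-05) and a brighter one at -0.17 (adjusted p = 0.0861). Cacng2 (stargazin), which links AMPA receptors to Dlg4, was lower on both probes, by -0.42 (adjusted p = 0.0059) and -0.29 (adjusted p = 0.0151). Nptx2, a secreted pentraxin that gathers AMPA receptors, was higher on both, by 0.50 (adjusted p = 0.00313) and 0.42 (adjusted p = 0.00459). Homer1, another gene of the Homer family, had 1 of 4 probes higher, by 0.63 (adjusted p = 0.00467), and the others differed by -0.01 to 0.21.

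The list of glutamate supply and clearance has 11 genes and 25 probes detected on all 8 arrays. Here 4 were higher, 3 lower and 18 did not pass, with a median of 0.06, against the same shares of all probes. Slc1a2, the main glutamate transporter of astrocytes, was lower by -0.28 (adjusted p = 0.00642).

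Of the leading probes, 4 of 7 microglial, 3 of 7 astrocytic and 2 of 7 oligodendrocyte markers were lower in BTBR/R mice, 1 microglial marker was higher, and all 3 red blood cell markers were lower, where 13.9% of all probes were lower and 13.0% higher. The summed level was 5.87 to 5.92 in B6 and 5.66 to 5.78 in BTBR/R mice for microglia, and 6.31 to 8.04 against 5.75 to 6.06 for red blood cells. Cortical glutamatergic markers had 2 of 8 higher and 1 lower, with summed levels of 4.96 to 5.19 and 5.09 to 5.26, and striatal ones 1 of 8 lower, with 7.53 to 7.61 and 7.39 to 7.57. The choroid plexus list ranged from 1.63 to 5.40 among B6 mice and from 2.76 to 4.72 among BTBR/R mice. The part of these markers in the differences of the receptor and scaffold genes was not tested.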

How the data were processed

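RNA from 8 mice, 4 per strain and 1 per array, was measured on Agilent 1-colour arrays of 62976 spots on 1 slide. The authors deposited the spot intensities of Agilent Feature Extraction (10.7.3.1 in the submitters' processing notes), among them the processed signal, which is background subtracted. They also deposited log2 values, which differed from the log2 of that signal by 1 constant on each array (to within 0.01 for 99.97% of probes or more).

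Samples were grouped by the strain in their labels. Control spots and outlier spots were left out and spots of 1 probe averaged, leaving 56605 probes. Each array was scaled by subtracting its 75th percentile from the log2 signals, and the strain difference was tested in R 4.3.3 with lmFit and eBayes of limma 3.58.1, two-sided, with Benjamini-Hochberg adjustment over all probes. The methods' t-test was an alternative. In simulated data for BTBR/R minus B6 over 56605 probes, 194 of 200 probes changed by 1.5 log2 were called (97%), with 4 unchanged ones. Detection limits the precision of dim probes: the lowest detected processed signal was 14.5 to 17.8 on B6 and 36.1 to 47.1 on BTBR/R arrays. No probe was saturated. The number of arrays limits the precision throughout.

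The members and lists were chosen with earlier results of these data known. By the rule for named genes, per-mouse values are given for members called at 2-fold with detection on every array of a strain and for passing leading probes that changed by at least 0.3 (log2). Those of Grid1, Gsg1l, Slc17a6, Slc17a8, Dlg1, Dlg2, Dlg4 and Dlgap4 were added after their values were seen, as were the genes named from the pathway lists. Of 92 accessions, 67 were found in the RefSeq table (GRCm38.p6), all with the same symbol. The mm9 build is that of C57BL/6J, and no BTBR/R genome sequence was used here.

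Alternatives were normexp background correction (offset 50), other scalings (quantile, median, detected probes, 7 spike-in probes), the authors' log2 values, 2 filters and a floor for dim probes, the methods' t-test, limma trend and robust, a replicate block, the mean over a gene's probes, and leaving out each mouse. Leaving out the 2 mice highest in thalamic markers was added after the data were seen. All cortical, striatal and interneuron markers, of 8 each, were detected on all 8 arrays. Of the 5 hippocampal and 6 cerebellar markers detected on all 8 arrays, 1 hippocampal marker was lower and the others did not pass. Of the interneuron list 1 was lower.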

Additional observations from a re-analysis of the deposited data

Results flagged for a closer look

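Within each strain, mice that stood apart from the other 3 were sought by Dixon's gap ratio, the gap to the nearest mouse divided by the range, against its 95% critical value for 4 mice. Over the 108 groups tested, chance alone gives about 1 in 20, or 5.4, and 10 groups exceeded it.

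Slc17a6 stood out in both strains, with B6 replicate 1 at 0.87 (ratio 0.909) and BTBR/R replicate 2 at 0.30 (ratio 0.834), and Slc17a8 in B6 replicate 1 at -0.60 (ratio 0.945). These mice were also the highest of their strain in the summed level of the thalamic markers. Grin3b was lowest in replicate 4 of both strains, at -3.26 in B6 (ratio 0.864) and -3.49 in BTBR/R mice (ratio 0.858). The dim probe 2 of Grik2 read -3.75 in BTBR/R replicate 4 (ratio 0.862).

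The other ratios came from groups with a small range. Grin1 in B6 replicate 4 was 2.75 against 2.70 in the other 3 mice (ratio 0.977). The leading probe of Dlg4 in B6 replicate 1 was 2.79 against 2.88 to 2.89 (ratio 0.92). Dlgap4 in the same mouse was 4.16 against 4.13 (ratio 0.906), and probe 4 of Dlgap1 in B6 replicate 2 was 0.30 against 0.16 to 0.18 (ratio 0.83).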

How the results depend on the processing

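The count of 7 higher member probes became 4 with scaling by the median, 4 with a floor at the highest detection limit, 3 with a replicate block, 16 with spike-in scaling and 3 to 7 without single mice. The count of 13 lower probes became 3 with spike-in scaling and 9 to 13 without single mice. Normexp correction took the count of called lower probes not detected on every BTBR/R array from 1 to 0. No member probe detected on all 8 arrays was called at 2-fold in any alternative, although Dlg1 probe 2 differed by -1.52 (adjusted p = 0.255) with the authors' log2 values. Values that passed on at least 1 side and changed sign were Grin2a (-0.043) and Dlgap1 (-0.14) as means over their probes and Dlgap1 probe 6 (0.10) with normexp. Other changes of sign were in values that passed in neither fit, among them Grin2c (0.06) and Dlgap3 (0.01) with spike-in scaling and Slc17a6 (0.08) and Slc17a8 (0.04) without the 2 mice highest in thalamic markers. Of the 20 passing probes, those of Grik3, Neto1, Homer2 and Dlg2 probe 4 passed in all 21 alternatives that keep single probes, and Grik1 probe 5 (8), Grin2b probe 2 (9) and Neto2 probe 3 (11) in the fewest. Same-numbered mice share a slide row. Their deviations from the strain means correlated at r = 0.00, -0.07, -0.04 and 0.16 over 28547 probes, so only the pair numbered 4 exceeded 0.1 and the numbers were not taken to pair the mice. With a replicate block 3 probes were higher and 9 lower. The cause of these moves was not tested. Dim probes are limited by the higher detection limit of the BTBR/R arrays.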
